A study of Homo sapiens with 4 samples.

Results

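A set of 10 transcription factor genes that marks the identity of the lung mesenchyme was examined for the histone variant H3.3 around their promoters and along their bodies, without UV and after UV-C. The 10 genes were *TBX2*, *TBX4*, *TBX5*, *FOXF1*, *TWIST1*, *TWIST2*, *PRRX1*, *TCF21*, *MEOX2* and *RUNX1*, out of 20033 protein-coding and 62663 annotated genes. The rule lists them by name and uses no measured value, although the set was put together with earlier results of these data known. For each gene, every H3.3 interval was taken that overlapped the gene body or lay within 50 kb of any of its annotated transcription start sites (TSSs). These windows held 95 of the 88822 distinct intervals in the list without UV and 63 of the 77183 in the list after UV, and an interval in the windows of 2 genes was counted once.

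The cells were MRC5, human lung fibroblasts, for which the study's methods name the SV40-immortalized line MRC5_VA of fetal origin. H3.3 was precipitated with antibody ab176840 from wild-type cells left untreated, and from the same cells given 10 J/m2 of UV-C and left to recover for 3 h. Each condition was 1 library, sequenced from the combined DNA of 3 replicates, so no test between conditions was possible and no p-value is given. The 2 matching input libraries were not analysed here.

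H3.3 is the replacement form of histone H3. It is deposited outside DNA replication, by HIRA at active promoters and gene bodies and by ATRX and DAXX at repeats. It therefore accumulates where nucleosomes turn over. The lung mesenchyme forms around the branching epithelium, and its regional identity is held by T-box factors, by FOXF1 downstream of Hedgehog signalling, by the basic helix-loop-helix factors TWIST1, TWIST2 and TCF21, and by the homeobox factors PRRX1 and MEOX2. RUNX1, best known from blood stem cells, is also expressed in fibroblasts. UV-C produces bulky lesions in DNA, which block RNA polymerase II and are removed by nucleotide excision repair.

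In what follows, a promoter interval lay within 1 kb of a TSS of the gene, a gene-body interval overlapped the gene but no promoter, and a flanking interval was any other. Each interval carried a q-value, a p-value of the peak caller corrected for multiple testing and here given as −log10 q, which was computed within its own library. To set both lists side by side, each interval was also given its percentile, the rank of its −log10 q among all distinct intervals of its own list, where 100 is the strongest. An interval was said to persist when an interval of the other list overlapped it by at least 1 bp. The lists carry no read numbers, so the depth of the libraries is unknown and a peak missing from 1 list may lie just under that library's threshold. All coordinates are hg38, with genes from GENCODE release 44.

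The promoters of 4 genes are shown to compare members with and without H3.3 at the start site. Sequences are from RefSeq (GRCh38.p14), which matched 7 of the 10 genes, and run 5′ to 3′ on the coding strand up to the TSS or to the first base annotated as transcript. Capitals mark CpG dinucleotides. The *TWIST2* stretch is chr2:238847835-238848031 on the plus strand, the *RUNX1* stretch is the proximal promoter at chr21:34888700-34888949 on the minus strand, the *TCF21* stretch is chr6:133888863-133889112 on the plus strand and the *MEOX2* stretch is chr7:15686684-15686933 on the minus strand.
TWIST2: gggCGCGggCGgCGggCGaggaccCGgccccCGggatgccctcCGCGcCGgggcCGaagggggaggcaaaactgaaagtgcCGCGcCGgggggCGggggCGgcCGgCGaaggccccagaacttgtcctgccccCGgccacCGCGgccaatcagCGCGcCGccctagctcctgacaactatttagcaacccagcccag
RUNX1: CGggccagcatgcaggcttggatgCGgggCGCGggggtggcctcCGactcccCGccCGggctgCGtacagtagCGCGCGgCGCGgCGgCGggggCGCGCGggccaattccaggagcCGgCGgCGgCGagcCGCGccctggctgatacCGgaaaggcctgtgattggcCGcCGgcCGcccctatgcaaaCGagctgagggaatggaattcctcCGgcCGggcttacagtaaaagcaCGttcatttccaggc
TCF21: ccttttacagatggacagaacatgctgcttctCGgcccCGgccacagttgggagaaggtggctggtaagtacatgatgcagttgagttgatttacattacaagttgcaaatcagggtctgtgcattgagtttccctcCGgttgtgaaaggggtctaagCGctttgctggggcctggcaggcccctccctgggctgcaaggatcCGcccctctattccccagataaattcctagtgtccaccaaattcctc
MEOX2: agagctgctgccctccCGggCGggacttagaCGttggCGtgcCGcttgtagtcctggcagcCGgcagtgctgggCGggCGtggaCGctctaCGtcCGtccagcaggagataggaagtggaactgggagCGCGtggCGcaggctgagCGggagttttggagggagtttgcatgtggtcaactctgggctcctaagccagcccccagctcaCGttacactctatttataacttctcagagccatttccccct

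The *TWIST2* stretch held 24 CpG in 197 bases and the *RUNX1* stretch 32 in 250 bases, and an H3.3 interval covered each of them in both lists. The *TCF21* stretch held 5 CpG in 250 bases, and its H3.3 interval began 327 bp downstream of the TSS without UV. The *MEOX2* stretch held 16 CpG in 250 bases and carried no interval in either list. Across 15345 protein-coding promoters of 300 bases, from 250 bases before to 50 after the TSS, the median was 22 CpG, against 30 in promoters overlapped by an interval without UV and 16 in those overlapped in neither list. Within the same 300 bases *RUNX1* had 40 CpG, *TWIST2* 29, *TBX5* 21, *TBX4* 18, *MEOX2* 16, *PRRX1* 11 and *TCF21* 9. An interval overlapped these bases in both lists in *RUNX1* and *TWIST2*, which had the most CpG, and in neither list in the others. Within 1 kb of a TSS, *TCF21*, with the fewest CpG, also had an interval in both lists. *TBX5*, *TBX4* and *MEOX2* had none. Among all promoters with at least 15 CpG, 51.1% were overlapped in neither list.

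Short motifs were counted in the same 300 bases on both strands, as a description only. GGGCGG, the core of a GC box, was found in *TBX4*, *TWIST2*, *TCF21*, *MEOX2* and *RUNX1*, and in 59.2% of all promoters. CCAAT was found in *TWIST2*, *PRRX1* and *RUNX1* and in 36.6% of promoters. TATAAA was found only in *MEOX2* among the 7 matched members and in 9.63% of promoters, and CATCTG, an E-box of the kind bound by TWIST proteins, only in *TCF21* and in 11.5%. Sites of other factors occurred in none of the 7 matched members. The AP-1 site TGAGTCA was in 3.68% of all promoters, the cyclic AMP response element TGACGTCA in 2.64%, the forkhead site TGTTTAC in 2.63% and the T-box site AGGTGTGA in 0.912%.

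Over all members, most promoter intervals were present in both libraries, and most of the intervals missing after UV lay in introns or flanks. Without UV, 6 of the 10 genes had a promoter interval, against 48% of protein-coding genes. After UV, 7 of 10 had a promoter interval (54% of protein-coding genes), and 6 had it in both libraries (44.8%). *PRRX1* was the gain (9.2% of protein-coding genes gained), no member lost its promoter intervals (3.2% did), and *TBX4*, *TBX5* and *MEOX2* had none in either library (42.8%). These shares are near those of protein-coding genes in general, and with 10 genes they do not set the members apart.

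**Figure D1:**
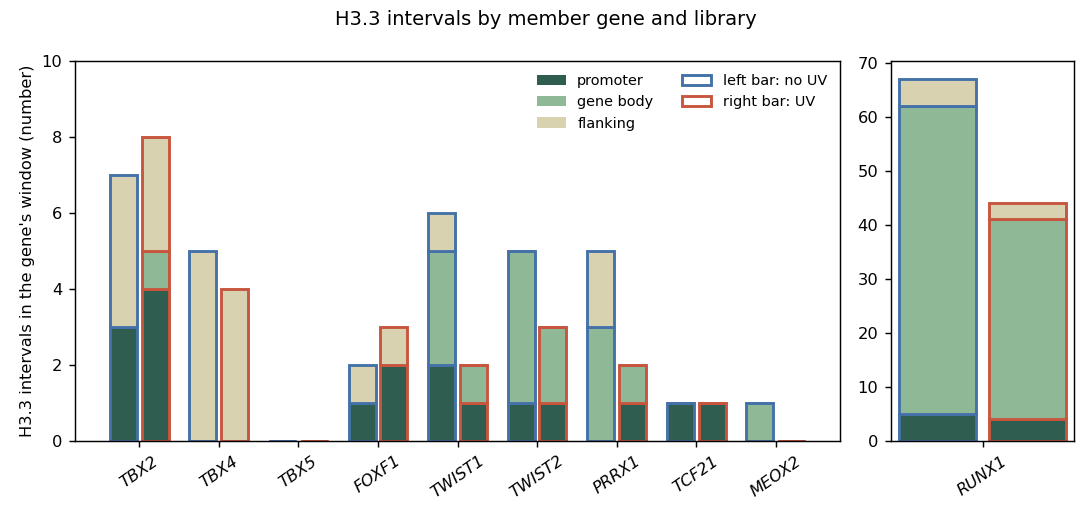
Number of distinct H3.3 intervals in the window of each gene (vertical axis, from 0) without UV (left bar, blue outline) and after UV (right bar, red outline), with promoter, gene-body and flanking intervals stacked. *RUNX1* has its own axis because it held 67 and 44 intervals, while no other member held more than 8.

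Of the 95 intervals present without UV, 47 persisted, or 49.5% (exact Clopper-Pearson 95% interval 39.1 to 59.9, counting error only), beside 57.3% of all distinct intervals in that list. Persistence differed with the position of the interval. Promoter intervals persisted in 11 of 13 cases (84.6%, interval 54.6 to 98.1), gene-body intervals in 32 of 68 (47.1%, 34.8 to 59.6) and flanking intervals in 4 of 14 (28.6%, 8.39 to 58.1). Over all protein-coding genes these shares were 76.5%, 50.5% and 58.8%. The 95% intervals of the members include the general values for promoters and gene bodies. For flanking intervals the upper bound of 58.1% lay just under the general 58.8%, on 14 intervals, neighbours of which are not independent.

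**Figure D2:**
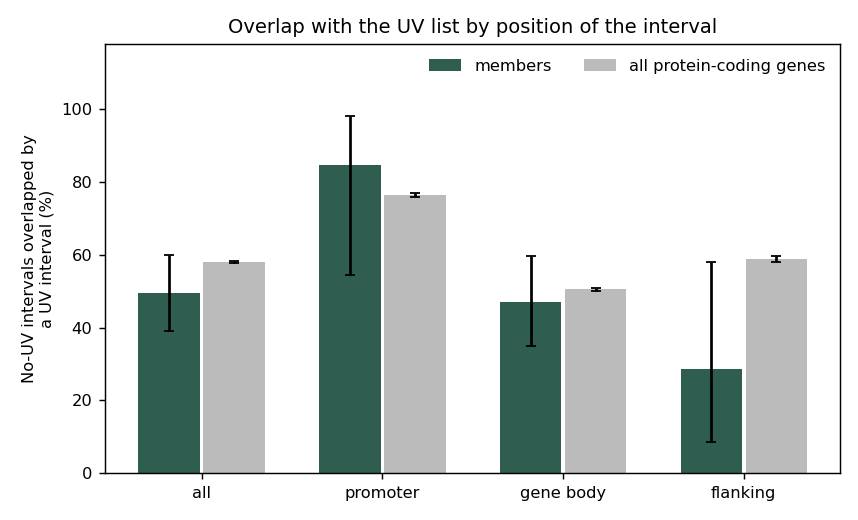
Share of intervals without UV that an interval after UV overlapped (vertical axis, %, from 0), for all intervals and by position, in the 10 members (green) and in all protein-coding genes (grey). Error bars are exact 95% binomial intervals for counting error, and among the members the promoter bar is highest at 84.6% and the flanking bar lowest at 28.6%.

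In the other direction, 45 of the 63 intervals after UV had a counterpart without UV (71.4%, 58.7 to 82.1), beside 65.6% of that whole list. By position these were 9 of 14 promoter intervals (67.7% over protein-coding genes), 32 of 42 gene-body intervals (62.8%) and 4 of 7 flanking intervals (68.4%). Intervals that persisted were the stronger ones: their median percentile without UV was 76.2, against 42.1 for the 48 that had no counterpart. Over protein-coding genes the same medians were 68.0 and 32.7. Where intervals persisted, their strongest summits lay a median of 78 bp apart, and 41 bp apart at promoters, beside 52 and 37 bp over protein-coding genes.

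Promoter intervals of the members were GC-rich, with a median GC content of 68.0% in both lists, while gene-body intervals had 45.6% without UV and 47.0% after UV. The medians over the whole lists, which hold intervals of all positions, were 49.2% and 50.8%. Among the protein-coding promoter sequences counted for CpG above, those overlapped by an interval had medians of 69% without UV and 68.7% after UV. Those sequences were of fixed length and were not intervals. The promoter intervals of the members had a GC content close to theirs, which does not set the members apart. Of the 68 gene-body intervals without UV, 65 lay in introns, 55 of them in *RUNX1*. Of the 13 promoter intervals without UV, 8 overlapped coding exon sequence, 2 overlapped non-coding exon sequence and 1 lay upstream of the gene. All of these persisted. The remaining 2 lay in introns of *RUNX1* and did not persist, and 1 of them stood at percentile 0.36. Shares by exon or intron were not computed over all protein-coding genes.

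Of the 3 T-box genes, only *TBX2* carried an H3.3 interval at its promoter. *TBX2*, which keeps mesenchymal and epithelial cells of the growing lung cycling, lies on the plus strand of chromosome 17 at 61399843-61409466. It had 7 intervals without UV and 8 after UV, and 5 of the 7 persisted. Its 3 promoter intervals without UV were all found again. The interval over the canonical TSS and the first exon, chr17:61399206-61400059, had a −log10 q of 7.52 (percentile 69.6), and its counterpart at 61399172-61400125 had 14.5 (percentile 81.7). The coding-exon interval chr17:61400465-61400757 was the strongest promoter interval in both lists, at 12.1 (percentile 83.9) without UV and 15.1 (percentile 82.7) after UV. TSSs of the antisense gene *TBX2-AS1* and of another long non-coding RNA gene lie within 1 kb of both of these promoter intervals. Which gene they belong to cannot be told apart.

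The third promoter interval of *TBX2*, chr17:61408000-61408340, lay in a coding exon beside an alternative TSS near the 3′ end and stood at percentile 78.0 without UV and 82.1 after UV. After UV a further interval was listed in the terminal exon, chr17:61409148-61409492 (percentile 77.7), and another in a coding exon, chr17:61405584-61405982 (percentile 66.8). Neither had a counterpart without UV. The gene was also flanked by intervals in both lists. An upstream interval, chr17:61395592-61396676, with its summit at −3970 bp from the TSS and beside a TSS of the antisense gene *TBX2-AS1*, stood at percentile 76.7 without UV and 92.0 after UV. A downstream interval, chr17:61410826-61412200, beside TSSs of *LINC02875* and *TBX2-AS1*, stood at 86.6 and 90.2.

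A pair of intervals farther downstream of *TBX2* were listed without UV only. These were chr17:61426371-61427625, at percentile 83.1 with a fold enrichment of 7.73 over the local background, and chr17:61432273-61432793, at percentile 58.4. They lie between *TBX2* and *TBX4*, in the windows of both genes.

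*TBX4*, the T-box gene that acts with *TBX5* in lung bud outgrowth and marks lung mesenchyme, is the next T-box gene downstream, at chr17:61452404-61485110. Neither its promoters nor its body held an interval in either library, over 8 annotated TSSs. All 5 intervals of its window without UV, and all 4 after UV, were flanking, and each but 1 was also in the *TBX2* window. The nearest was 19629 bp upstream of the canonical TSS without UV, which is the interval missing after UV, and 39357 bp upstream after UV. The remaining one, chr17:61505137-61505546 (percentile 69.1), lay downstream of the gene and did not persist.

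*TBX5*, which is needed for specification of the lung as well as the heart and forelimb, lies on the minus strand at chr12:114353911-114408442. Its window of 105 kb held no interval in either library. The nearest were 219692 bp from the canonical TSS without UV and 262545 bp after UV, both upstream. Among protein-coding genes 14.5% had no interval in their window in either library, so an empty window is not rare. A file that lists only intervals past a threshold cannot show that H3.3 was absent there.

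*FOXF1* encodes the forkhead factor that Hedgehog signals switch on in lung mesenchyme, and lies at chr16:86510527-86515422 on the plus strand. It had 2 intervals without UV and 3 after UV. The interval over its single TSS, chr16:86509459-86510792, was found after UV at 86509445-86510787, with edges 14 and 5 bp away and the strongest summit 20 bp away. Its −log10 q was 22.1 (percentile 93.5) without UV and 14.3 (percentile 81.4) after UV. A TSS of the divergent long non-coding RNA gene *FENDRR* lies within 1 kb of the same interval, so which of both genes it belongs to cannot be told apart.

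A pair of weaker intervals beside the *FOXF1* promoter were listed only after UV, in the coding exon at chr16:86511040-86511498 (−log10 q 5.83) and upstream, near a TSS of *FENDRR*, at chr16:86508549-86508931 (percentile 36.0). An interval 19109 bp downstream of the TSS, chr16:86529534-86530012 (percentile 12.4), was listed only without UV. H3.3 around *FOXF1* was thus confined to the start region in the list after UV, within the 50 kb examined.

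**Figure D3:**
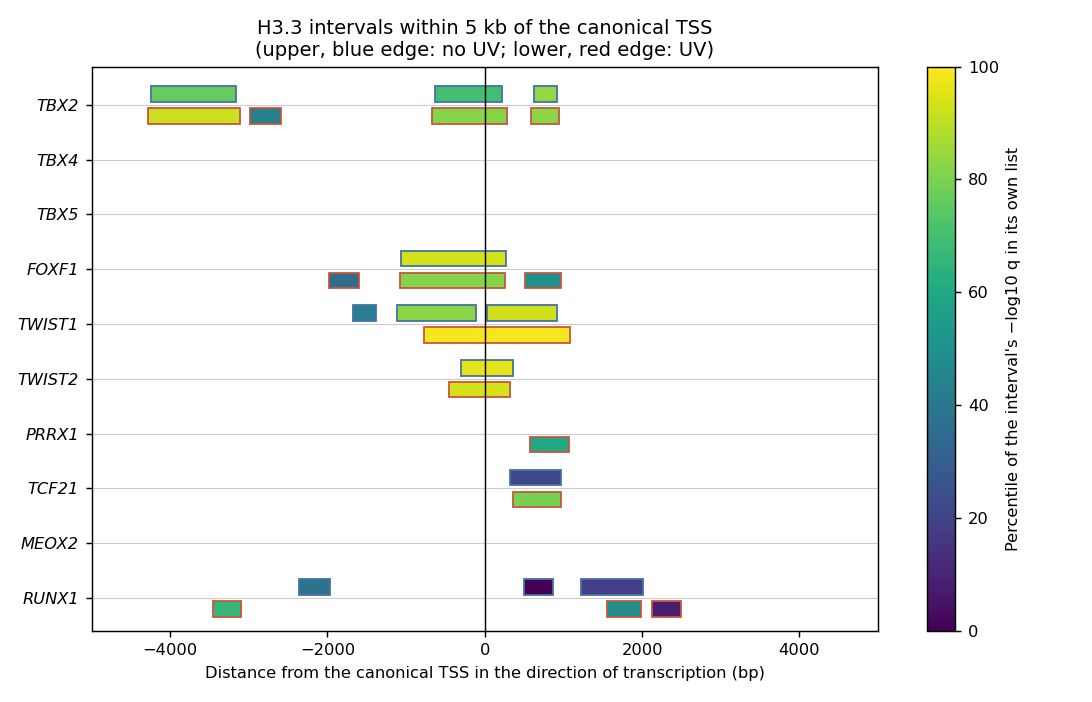
H3.3 intervals within 5 kb of the canonical TSS of each gene, by distance in the direction of transcription (horizontal axis, bp), without UV (upper box, blue edge) and after UV (lower box, red edge), coloured by percentile within the list. *TBX2*, *FOXF1* and *TWIST2* have overlapping boxes at the TSS in both lists. *TWIST1* has boxes on either side of the TSS without UV and a box over it after UV. *PRRX1* has a box after UV only, and *TBX4*, *TBX5* and *MEOX2* have none.

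The 3 bHLH genes had promoter intervals in both lists, of unequal strength. *TWIST1*, a repressor of epithelial genes and a driver of mesenchymal state, lies on the minus strand of chromosome 7 with its canonical TSS at 19117636. Without UV its promoter held 2 intervals 131 bp apart, chr7:19116722-19117610 over the coding exon (−log10 q 20.4, percentile 92.6) and chr7:19117742-19118749 upstream of it (11.5, percentile 82.7). After UV a single interval of 1856 bp with 5 summits, chr7:19116549-19118404, overlapped both. It also covered the canonical TSS, which without UV lay in the gap between the 2 intervals. It had a −log10 q of 67.2 and a fold enrichment of 13.0, against 20.4 and 4.83 for the stronger one without UV, and stood at percentile 98.7, the highest of any member interval. The strongest summits of the coding-exon interval were 3 bp apart in both lists. A TSS of a long non-coding RNA gene lies within 1 kb of these promoter intervals in both lists. Which gene they belong to cannot be told apart.

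Away from the promoter, the longest annotated *TWIST1* transcript reaches 19020991 and gives the gene a length of 96.6 kb. An intronic interval of it, chr7:19024657-19025228, persisted at percentile 82.0 without UV and 49.3 after UV. Another 2 intronic intervals (percentiles 45.4 and 20.3) and a flanking one 1385 bp upstream of the TSS (percentile 42.4) were listed without UV only. *TWIST1* therefore went from 6 intervals to 2, while its promoter interval stood higher in its list. Part of that count comes from the 2 promoter intervals that met 1 interval after UV.

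*TWIST2*, the paralog of *TWIST1* expressed in dermal and other fibroblasts, lies on the plus strand at chr2:238848032-238910534. Its promoter interval, chr2:238847785-238848444, covered all 3 TSSs and overlapped the coding exon, with a −log10 q of 29.7 (percentile 96.3) and a fold enrichment of 8.33. After UV it was at 238847629-238848408 with 30.5 (percentile 93.5) and 8.72. The strongest summits lay 2 bp apart, at 80 and 82 bp past the canonical TSS. Of 4 gene-body intervals without UV, 2 persisted. The intronic one at chr2:238864333-238864733 stood at percentile 73.1 without UV and 89.9 after UV, and the one over the last, non-coding exon at chr2:238909252-238909917 stood at 34.4 and 6.37.

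*TCF21* encodes a bHLH factor of lung, kidney and heart mesenchyme and marks lipofibroblasts. The gene lies at chr6:133889113-133895553 and had a single interval in each library. It was chr6:133889440-133890086 without UV and 133889466-133890084 after UV, in the first coding exon downstream of the TSS. The −log10 q was 2.97 (percentile 22.1, fold 2.76) without UV and 13.0 (percentile 79.1, fold 4.28) after UV. The percentile was 57.0 points higher after UV, and 97.7% of 8974 protein-coding genes with promoter intervals in both lists had a difference at or below this, with a central 95% from −34.9 to 54.4 and a median of 1.68. A TSS of the antisense RNA gene *TARID* lies within 1 kb of the same interval. The weak interval without UV drops out when a −log10 q of at least 3 is asked for, and *TCF21* then has a promoter interval after UV only.

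**Figure D4:**
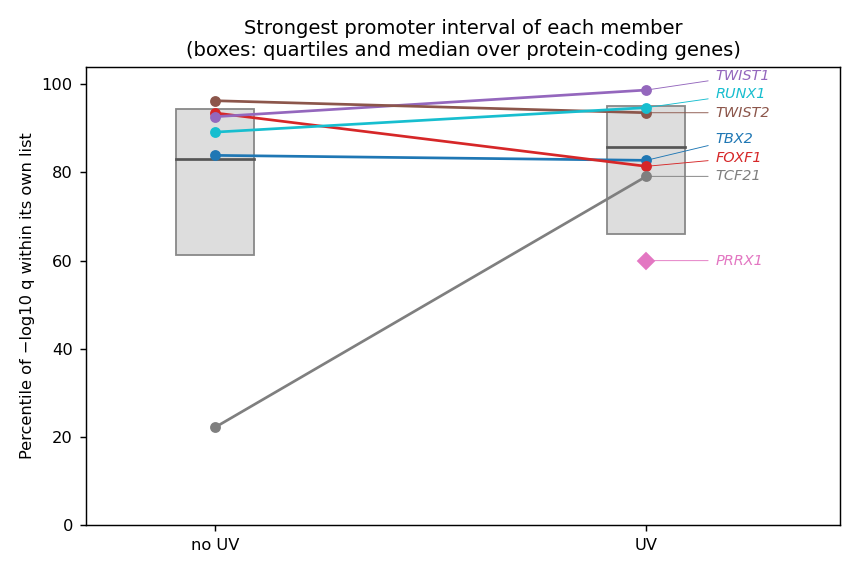
Percentile of the strongest promoter interval within its own list (vertical axis, 0 to 100) without UV and after UV for the 7 members with such an interval, over boxes with the quartiles and median of protein-coding genes with a promoter interval. *TCF21* has the steepest line, from 22.1 to 79.1, and *PRRX1* (diamond) has a value of 60.0 after UV only.

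Neither homeobox gene had a promoter interval without UV. *PRRX1*, a regulator of fibroblast fate and of limb and craniofacial mesenchyme, lies at chr1:170662728-170739421 on the plus strand. Without UV none of its 8 TSSs had an interval within 1 kb, and the nearest interval was 28915 bp upstream of the canonical TSS. After UV an intronic interval, chr1:170664707-170665203, was listed 576 bp downstream of the canonical TSS, with a −log10 q of 7.28 (percentile 60.0) and a fold enrichment of 4.03. The strongest promoter interval of a protein-coding gene had a median percentile of 85.8 after UV. Promoter intervals of protein-coding genes after UV that had no counterpart had a median of 45.6. The *PRRX1* interval thus stood below the first median and above the second. It does not count as a promoter interval within 500 bp.

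Outside the promoter, *PRRX1* had 3 intronic and 2 flanking intervals without UV. Of these, the intronic chr1:170709062-170709558 (percentile 20.3), persisted at 170708927-170709501 (percentile 18.0). The other 4 stood between percentiles 20.3 and 45.4 and had no counterpart. *PRRX1* thus went from 5 intervals to 2.

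*MEOX2*, a homeobox gene of somitic, limb and lung mesenchyme, lies on the minus strand at chr7:15611212-15686683. It had 1 interval without UV, chr7:15621700-15621980 in an intron near the 3′ end, with a −log10 q of 3.42 (percentile 27.9). After UV its window held none, as in 17.5% of protein-coding genes, and the nearest interval was 205423 bp upstream of the TSS.

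*RUNX1*, which encodes the DNA-binding subunit of core binding factor, held 67 of the 95 intervals without UV and 44 of the 63 after UV. It is annotated over 1217 kb of the minus strand, chr21:34787801-36004667, although the canonical transcript spans 261.5 kb. Per length it was ordinary: 5.26 intervals per 100 kb of window without UV and 3.45 after UV, beside medians of 3.99 and 3.51 over protein-coding genes. The gene is read from a distal promoter, at the canonical TSS 35049302, and from a proximal promoter near 34888690, the sequence shown above.

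Within 1 kb of a TSS, the proximal promoter had intervals in both libraries, and the distal promoter had a weak interval without UV only. At the proximal promoter, 2 intervals without UV, chr21:34888121-34889326 (−log10 q 15.4, percentile 88.5) and chr21:34889478-34889827 (15.8, percentile 89.1), were overlapped after UV by 1 interval with 3 summits, chr21:34888416-34889929 (34.3, percentile 94.7). A neighbouring interval over a coding exon, chr21:34886638-34887131, stood at percentile 77.9 without UV and 39.2 after UV with edges 3 and 4 bp apart. After UV a further intronic interval, chr21:34890618-34891188 (percentile 36.9), was listed beside them.

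The interval within 1 kb of the distal promoter, chr21:35048435-35048798, had a −log10 q of 1.36 (percentile 0.36), among the weakest of the list, and had no counterpart after UV. This call rests on the 1 kb limit. An intronic interval at chr21:35047288-35048079, 1191 bp from the nearest TSS of the distal promoter, had a −log10 q of 2.82 (percentile 18.3) without UV and persisted at 35047315-35047751, 1519 bp away, with 5.73 (percentile 48.6). Within 2 kb, the distal promoter therefore had an interval in both libraries. A promoter interval of an internal TSS, chr21:34855418-34855770 (percentile 64.0), was also listed without UV only. At the far end, an interval near the most upstream TSS, chr21:36003668-36004060 (percentile 2.64), was listed after UV only. As a result, 9 of 16 *RUNX1* TSSs had an interval within 1 kb without UV and 4 of 16 after UV. Of the 9, 5 belonged to the distal promoter and shared its single weak interval.

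**Figure D5:**
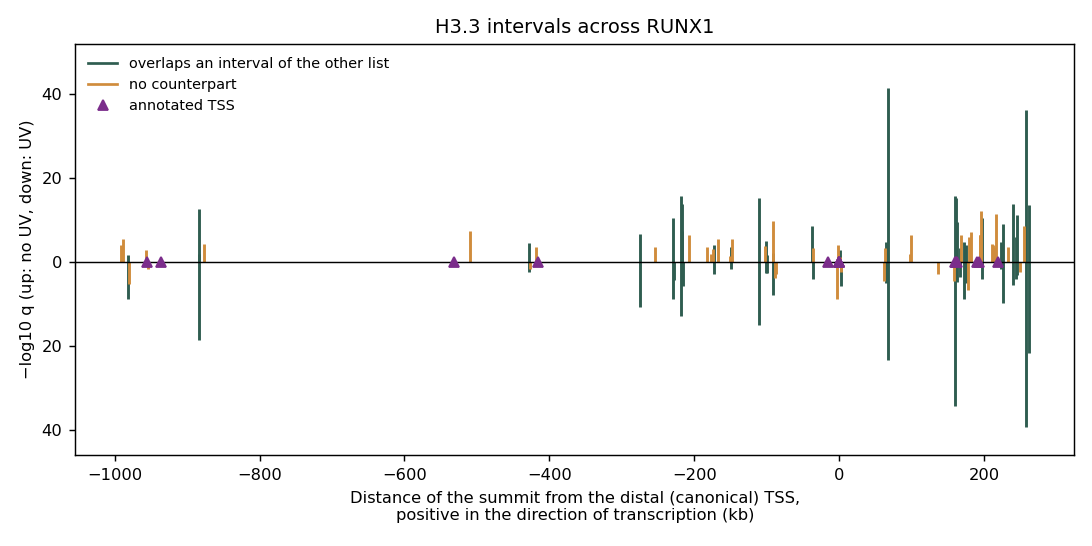
H3.3 intervals across *RUNX1* by distance of the summit from the distal TSS in the direction of transcription (horizontal axis, kb), with −log10 q drawn upward without UV and downward after UV. Intervals with a counterpart in the other list are green and those without are orange; triangles mark TSSs, and the tallest lines in both lists are green.

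Along the body of *RUNX1*, 57 gene-body intervals were listed without UV and 37 after UV. Of the 57, 28 persisted (49.1%, beside 50.5% of gene-body intervals of protein-coding genes). The densest stretch was the 102 kb from the 3′ end to the proximal promoter, with 21 intervals without UV and 12 after UV, of which 10 of the 21 persisted. The 160 kb between the promoters held 6 and 7 intervals, and 3 of the 6 persisted. The 955 kb beyond the distal promoter, which only the long transcripts cover, held 30 and 18, and 15 of the 30 persisted. The share that persisted was thus close in all 3 stretches.

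The strongest gene-body intervals of *RUNX1* were among those that persisted. An intronic interval between the promoters, chr21:34982398-34983022, had a −log10 q of 41.4 (percentile 98.2) without UV and 23.2 (percentile 90.2) after UV. The interval over coding sequence of the canonical transcript near its 3′ end, chr21:34791735-34792496, had 36.2 (percentile 97.6) and 39.4 (percentile 95.9). Of the 28 gene-body intervals that persisted, 10 stood above percentile 80 without UV, as did 2 of the 29 without a counterpart. The medians of both groups were 62.6 and 41.8.

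The number of *RUNX1* gene-body intervals after UV was 0.649 of that without UV. Over the gene bodies of all protein-coding genes together this ratio was 0.810, and among the 163 genes with at least 30 gene-body intervals without UV the median was 0.778 (quartiles 0.677 and 0.876), with 18.4% of them at or below *RUNX1*. The share that persisted had a median of 53.8% in the same 163 genes, with 34.97% of them at or below *RUNX1*. These genes were selected on their number of intervals without UV. Counted over whole windows, promoters and flanks included, *RUNX1* stood lower: among the 315 genes with at least 50 intervals without UV its ratio of 0.657 met a median of 0.921, with 4.44% of the genes at or below it, and its share of 49.3% that persisted met a median of 72.4%, with 9.84% at or below.

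By number of intervals, 6 members had fewer after UV (42% of protein-coding genes did), *TBX2* and *FOXF1* had more (29.1%), and *TBX5* and *TCF21* had the same (28.9%). The list after UV as a whole was 77183 intervals against 88822. Among the 6 genes with promoter intervals in both lists, the strongest one stood at a higher percentile after UV in *TWIST1*, *TCF21* and *RUNX1* and at a lower one in *TBX2*, *FOXF1* and *TWIST2*. Apart from *TCF21*, these differences lay between −12.1 for *FOXF1* and 6.05 for *TWIST1*, inside the central 95% of protein-coding genes.

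Genes of the same programme and of other cell types were counted by promoter interval in lists chosen with earlier results of these data known. Among 22 partners and paralogs of the members, 15 had a promoter interval without UV and 17 after UV, and all 15 were among the 17. *CBFB*, the partner subunit of RUNX1, stood at percentile 92.5 without UV and 93.7 after UV, and *GLI1*, a Hedgehog effector, at 78.0 and 83.6, while the forkhead genes *FOXF2* and *FOXL1* had none. *SNAI1* and *HOXA5* were listed after UV only, and are named because they were the 2 that differed. The share was 68.2% without UV, above the 48% of protein-coding genes, but such gene groups are small and no test was made.

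Among 20 genes of lung mesenchyme signalling, 11 had a promoter interval without UV and 13 after UV, again with all 11 among the 13. These shares of 55% and 65% stood beside 48% and 54% of protein-coding genes. The ligand genes *BMP4* and *FGF9* stood at percentiles 78.5 and 94.8 without UV and 80.3 and 93.2 after UV, and the mesenchymal growth factor genes *FGF10* and *FGF7* had none. The 2 listed after UV only, named for that reason, were the receptor genes *SMO* (percentile 54.7) and *PDGFRA* (percentile 44.8). Like *PRRX1*, they entered the list with intervals below the median percentile of 85.8 for the strongest promoter interval after UV. The median was 45.6 for promoter intervals of protein-coding genes after UV that had no counterpart.

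The label of lung fibroblast could be checked only through promoters, and an H3.3 interval is not a measure of expression. Of 12 fibroblast markers, 6 had a promoter interval without UV (50%) and 5 after UV (41.7%), beside 48% and 54% of protein-coding genes. The collagen genes *COL1A1* (percentile 98.0 and 99.2) and *COL1A2* (55.0 and 75.5) had it in both, *COL3A1* and *COL6A3* in neither, and *FAP* without UV only. Of 12 lung epithelial markers, 7 had an interval in both lists (58.3%), among them *CDH1* and *CLDN4* but not *EPCAM* or *FOXJ1*. *KRT8* and *KRT18* are named because they had equal percentiles, 99.1 without UV and 97.3 after UV. A single interval may therefore count for both of them. Promoter intervals therefore did not set fibroblast markers apart from epithelial ones.

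Markers of other cell types were counted in the same way. Of 10 endothelial markers, only *CLDN5* had an interval, in both libraries, and *CDH5* and *EMCN* were among the 9 without. This share of 10% lay below the 48% without UV and 54% after UV of protein-coding genes. Among blood cell markers, *CD68* and *LAPTM5* had an interval in both libraries, while *CD3E* and *CD79A* had none in either. Of 16 transcription factors of other lineages, 2 had an interval without UV (*FOXA1* and *PAX6*) and 3 after UV, while *CDX2* and *FOXA2* had none. These shares, 12.5% and 18.8%, also lay below those of protein-coding genes. The lists are small and no test was made.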

How the data were processed

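H3.3 was measured by ChIP-seq in 2 libraries, 1 per condition, which were assigned to the conditions from the sample labels. The submitters' processing notes name bcl2fastq 2.17, Trimmomatic 3.36, BWA 0.7.12 and MACS 1.4.2 with hg38; the control and threshold used for H3.3 peaks are not given in the sources used here. The authors deposited 1 peak list per library with a score, the enrichment of each summit as a fold (ratio) over local background, its −log10 p-value and its −log10 q-value. Intervals with several summits take several rows, a layout usual for later MACS versions, so whether version 1.4.2 made these lists, and how exactly it computed fold and q, is unclear. The lowest q in both lists was close to 0.05. Read depth is not given and is unknown.

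From these lists, rows on chromosomes 1 to 22, X and Y (102924 without UV, 89709 after UV) were reduced to distinct intervals, each with the values of its strongest summit. GENCODE release 44 gave the genes and their TSSs. Chromosome names and lengths were checked against hg38 (24 chromosomes, 0 intervals past an end). Promoters were within 1 kb of any TSS, windows within 50 kb, and overlap was at least 1 bp. Promoter sequences came from RefSeq. Values were set beside those of all 20033 protein-coding genes. The text names the 10 members, genes with a symbol that share their promoter intervals, and the first genes in alphabetical order with and without an interval in each list. The count for the blood cell markers is not reported here. Members and lists were chosen with earlier results of these data known. Alternatives were other TSS distances, promoter widths, q thresholds, overlap rules, equal numbers of intervals, counting each summit, the canonical transcript alone and leaving out *RUNX1*. The classification was tested on simulated intervals. Scripts ran in Python 3.11.15 with pysam 0.24.0, scipy 1.17.1, numpy 2.4.6, matplotlib 3.10.9 and pandas 2.3.3. Intervals on shares are exact Clopper-Pearson 95% intervals.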

Additional observations from a re-analysis of the deposited data

How the results depend on the processing

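Of 93 alternatives for the results over all members, 87 gave a count within 1.5 times the reported one or a share within its 95% interval. This is a loose measure, since several of the 95% intervals are wide. The promoter and gene-body shares also cannot change with the TSS distance. The canonical transcripts alone left 59 intervals without UV, since *RUNX1* then loses its long transcripts. A −log10 q of at least 5 left 49 without UV and 35 after UV. Without *RUNX1*, 28 and 19 intervals remained, and promoter persistence was 100% (8 of 8). Among the smaller changes, a −log10 q of at least 3 or 5 removed *TCF21* without UV (5 of 10 genes with a promoter interval), canonical TSSs removed *RUNX1* after UV (6 of 10, and 5 in both libraries), and a promoter within 500 bp removed *PRRX1* after UV (6 of 10). Persistence of promoter intervals was 66.7% within 2 kb. Of 217 alternatives for single genes, 38 moved.

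No paired analysis was possible because each condition had 1 library, which also leaves no replicate to omit. Depth is unknown, so an interval present in 1 list cannot be told from a difference in depth or threshold, and the 95% intervals cover counting error only.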
